A study of Mus musculus with 9 samples.

Results

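Genes induced by interferon were followed in RNA sequencing of regulatory T cells (Tregs) from mouse spleen. The group was a named set of 49 genes; 48 of them had a row in the count tables, and all 48 held 10 or more counts in at least 3 libraries, as did 12334 of the 23393 gene rows. Ifi27 was not analysed here. Ifnar1 and Ifnar2, which encode interferon receptor chains, belong to the set and are in every count of members below. The set was defined by gene names and not by measured values of these libraries, but it was drawn up with earlier results of these data known. The 9 libraries were compared in 3 groups of 3, all of them Tregs: cells of the genotype ST2KO (ST2KO), wild-type cells with high ST2 (ST2-high) and wild-type cells with low ST2 (ST2-low). ST2, encoded by Il1rl1, is the receptor for interleukin-33. No ST2 gate is named for ST2KO cells, so a difference between ST2KO and either wild-type group cannot be told apart from a difference in which Tregs were collected. The sources used here do not give the strain, the age of the mice, the deleted part of the gene, the gates or whether the 3 samples of a group came from separate animals. The p-values below therefore measure only how far these samples differ, and part of that may be technical.

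Interferons are secreted proteins that warn cells of infection. Type I interferons bind a receptor made of IFNAR1 and IFNAR2, and interferon-gamma binds IFNGR1 with IFNGR2; receptor-bound JAK kinases then phosphorylate STAT proteins. Complexes of these proteins bind short DNA elements near the genes they switch on, the interferon-stimulated response element (ISRE) and the gamma-activated site (GAS). The genes so induced encode sensors of foreign nucleic acid, antiviral effectors, large GTPases that attack vacuoles of intracellular pathogens, and feedback inhibitors. Tregs also respond to interferons, and their transcription of these genes varies with activation and inflammation.

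Library depth ranged from 11659659 counts in ST2KO replicate 3 to 43406680 in ST2KO replicate 1, and the wild-type libraries lay within those bounds. Il1rl1, the gene behind the labels, had 57.7, 61.4 and 83.6 CPM (counts scaled to library size) in ST2KO, 516, 421 and 547 CPM in ST2-high, and 2.16, 3.59 and 2.11 CPM in ST2-low libraries. The ST2KO libraries thus lay below ST2-high and above ST2-low, and a count over the whole gene cannot show whether a deleted part was read. Foxp3, the defining Treg transcription factor, had 410.2 to 443 CPM in ST2KO, 532 to 622 CPM in ST2-high and 445 to 478 CPM in ST2-low libraries. In bulk RNA, fewer cells of a type and less RNA per cell cannot be told apart.

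Levels are given as CPM in replicates 1, 2 and 3 of each group, scaled with the trimmed mean of M-values (TMM). They are not divided by gene length, so levels are compared between groups and not between genes. Log2 fold changes with their standard errors (SE) and adjusted p-values come from edgeR's quasi-likelihood test over all 12219 genes tested, with Benjamini-Hochberg adjustment and a threshold of 0.05.

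In ST2KO Tregs most interferon-induced genes were higher than in either wild-type group. Against ST2-low, 35 of the 48 members were higher, 4 were lower and 9 did not pass the threshold. Over all genes tested, 33% were higher and 29.3% lower in that comparison, so the members' shares of 72.9% higher and 8.33% lower stood beside a background in which changes in both directions were common. Against ST2-high, 36 members were higher, 6 were lower and 6 did not pass, beside 31.9% of all genes higher and 32.6% lower. The median log2 fold change of the members was 0.67 against ST2-low and 0.49 against ST2-high, where all genes had medians of 0.05 and 0.02. Every ST2KO library lay above every ST2-low one for 35 members (72.9%) and below for 4 (8.33%), beside 36% and 31.2% of all genes. Against ST2-high the counts were 34 members above and 6 below, beside 33.5% and 33.3% of all genes. The comparisons with ST2-low and ST2-high share the ST2KO libraries and are not independent of each other.

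Between the wild-type groups fewer members differed. In ST2-high, 10 members were higher and 4 lower than ST2-low, and 34 did not pass the threshold, beside 15.3% of all genes higher and 10.8% lower. The median log2 fold change was 0.12 for the members and 0.00 for all genes. Every ST2-high library lay above every ST2-low one for 11 members and below for 7, beside 20.5% and 17.6% of all genes. The 10 higher members were Gbp3, Gbp4, Gbp5, Gbp7, Igtp, Irgm2, Eif2ak2, Samhd1, Dtx3l and Ifnar1, and the 4 lower ones were Usp18, Trim25, Oasl2 and Ifnar2.

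Summed over the 48 members, the libraries held 4855, 4641 and 4541 CPM in ST2KO, 4143, 3920 and 3924 CPM in ST2-high, and 3670, 3600 and 3554 CPM in ST2-low. The 3 groups did not overlap in this sum, although single genes ran in other orders. Abundant genes weigh most in it: Samhd1 had means of 894, 809 and 732 CPM and Ifnar1 of 245, 609 and 485.5 CPM in ST2KO, ST2-high and ST2-low. Changes were mostly moderate: 9 members were at least 2-fold higher in ST2KO than ST2-low, where 6.86% of all genes were, and 9 were so against ST2-high, where 6.83% of all genes were. When the test asked for a change of more than 1.5-fold, 19 members were higher and 2 lower against ST2-low, where 8.39% of all genes were higher and 8.89% lower. Against ST2-high 14 were higher and 1 lower, where 8.4% of all genes were higher and 11.1% lower. In ST2-high against ST2-low 1 member, Gbp3, was higher, where 2.74% of all genes were higher and 0.0982% lower.

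**Figure D1:**
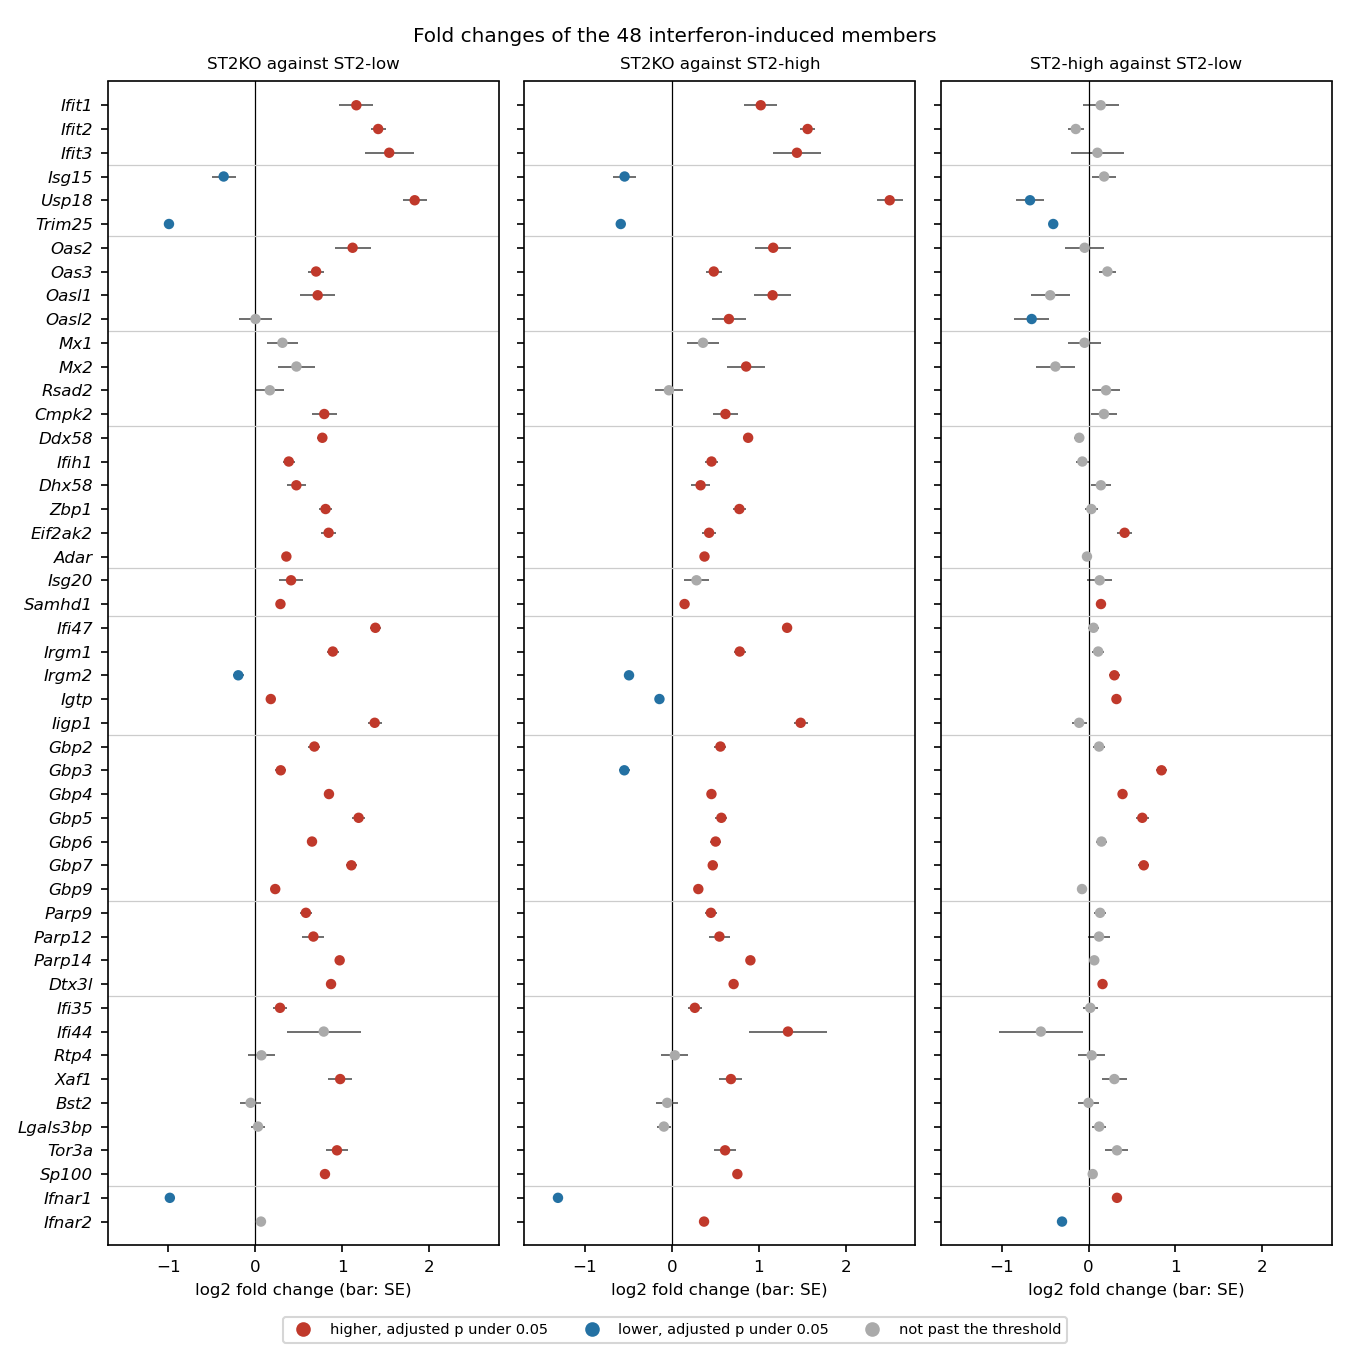
Log2 fold change with SE (horizontal axis) of each of the 48 members in ST2KO against ST2-low, ST2KO against ST2-high and ST2-high against ST2-low, coloured by whether edgeR's adjusted p passed 0.05. In both ST2KO panels most points lie right of 0, with Usp18 farthest right and Trim25 or Ifnar1 farthest left; in the wild-type panel most points lie near 0.

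Sequence around the transcript starts was searched for the elements that interferon signalling acts on. RefSeq promoter windows of the mouse assembly GRCm38.p6, from 250 bases before to 50 after an annotated transcript start, were at hand for 34 of the 49 members. They were searched on both strands for an ISRE core, GAAA and GAAA with 2 bases of any kind between them, and for a GAS core, TTCNNNGAA, which reads the same on both strands. The ISRE core was found in 16 of the 34 members (47.1%) and in 3.99% of the 27025 genes with a window. The GAS core was found in 13 members (38.2%) and in 9.55% of genes. A longer ISRE form, the same letters followed by CT, was found in 9 members (26.5%) and in 0.303% of genes. A match is a description of letters and not of binding, and no match says only that these letters are not in the window. Some genes have several windows, and a gene was counted once if any of its windows held a match. At least 1 of the cores was in 23 of the 34 members, so neither was common to all.

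The windows of Ifit1 and Isg15 are shown because both hold ISRE cores while their RNAs went in opposite directions in ST2KO. They lie at chr19:34640639-34640938 on the plus strand and at chr4:156200769-156201068 on the minus strand (GRCm38.p6, RefSeq). Each window is printed 5′ to 3′ on the gene's strand, with ISRE and GAS cores in capitals.
Ifit1: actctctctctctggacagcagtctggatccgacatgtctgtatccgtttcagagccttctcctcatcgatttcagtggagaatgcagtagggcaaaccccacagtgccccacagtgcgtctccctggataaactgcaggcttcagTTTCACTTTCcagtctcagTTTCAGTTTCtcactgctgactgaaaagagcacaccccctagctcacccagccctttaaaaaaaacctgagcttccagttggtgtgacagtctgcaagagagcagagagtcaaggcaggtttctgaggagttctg
Isg15: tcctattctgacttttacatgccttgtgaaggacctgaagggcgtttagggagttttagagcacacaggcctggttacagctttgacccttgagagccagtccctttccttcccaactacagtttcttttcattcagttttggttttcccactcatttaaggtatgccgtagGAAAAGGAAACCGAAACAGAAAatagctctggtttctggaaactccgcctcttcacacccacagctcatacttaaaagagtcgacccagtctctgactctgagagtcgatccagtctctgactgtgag
In Ifit1 the cores begin 104 and 85 bases before the start, both on the opposite strand. In Isg15 3 overlapping cores begin 78, 72 and 66 bases before it.

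The windows of 3 guanylate-binding protein genes on chromosome 3 are shown because their RNAs differed between all 3 groups. Gbp3 lies at chr3:142559794-142560093, Gbp5 at chr3:142496684-142496983 and Gbp7 at chr3:142530086-142530385, all on the plus strand.
Gbp3: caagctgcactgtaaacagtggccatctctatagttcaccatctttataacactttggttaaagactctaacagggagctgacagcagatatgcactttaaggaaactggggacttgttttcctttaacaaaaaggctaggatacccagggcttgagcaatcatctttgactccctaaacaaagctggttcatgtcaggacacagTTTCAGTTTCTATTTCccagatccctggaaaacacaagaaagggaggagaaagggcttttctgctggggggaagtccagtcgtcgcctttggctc
Gbp5: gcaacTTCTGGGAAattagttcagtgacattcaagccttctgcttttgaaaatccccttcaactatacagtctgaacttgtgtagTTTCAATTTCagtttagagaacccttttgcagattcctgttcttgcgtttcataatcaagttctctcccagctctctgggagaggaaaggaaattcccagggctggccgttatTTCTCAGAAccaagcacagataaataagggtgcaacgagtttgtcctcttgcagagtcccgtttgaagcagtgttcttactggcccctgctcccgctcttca
Gbp7: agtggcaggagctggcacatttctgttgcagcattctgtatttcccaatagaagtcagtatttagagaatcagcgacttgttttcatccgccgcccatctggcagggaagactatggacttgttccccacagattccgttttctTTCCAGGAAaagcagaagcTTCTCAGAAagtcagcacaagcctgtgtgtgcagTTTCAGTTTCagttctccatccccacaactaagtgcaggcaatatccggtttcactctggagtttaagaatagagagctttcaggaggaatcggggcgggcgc
Gbp3, which was highest in ST2-high cells, has overlapping ISRE cores beginning 45 and 39 bases before its start and no GAS core. Gbp5 and Gbp7, which were highest in ST2KO cells, have 1 ISRE core and 2 GAS cores each. Gbp2, whose window is not shown, was also highest in ST2KO cells and has 1 ISRE core and no GAS core.

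Among the immunity-related GTPases, Igtp and Irgm2 are neighbours on chromosome 11 whose RNAs were highest in ST2-high cells, while Ifi47 was 2.60-fold higher in ST2KO than ST2-low. Igtp lies at chr11:58199306-58199605, Irgm2 at chr11:58214727-58215026 and Ifi47 at chr11:49076337-49076636, all on the plus strand.
Igtp: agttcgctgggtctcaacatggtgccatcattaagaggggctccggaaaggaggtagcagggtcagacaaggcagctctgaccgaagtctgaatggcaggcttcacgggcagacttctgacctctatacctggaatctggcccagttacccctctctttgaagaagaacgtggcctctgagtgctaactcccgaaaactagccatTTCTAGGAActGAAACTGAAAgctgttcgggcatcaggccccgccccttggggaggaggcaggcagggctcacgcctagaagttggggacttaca
Irgm2: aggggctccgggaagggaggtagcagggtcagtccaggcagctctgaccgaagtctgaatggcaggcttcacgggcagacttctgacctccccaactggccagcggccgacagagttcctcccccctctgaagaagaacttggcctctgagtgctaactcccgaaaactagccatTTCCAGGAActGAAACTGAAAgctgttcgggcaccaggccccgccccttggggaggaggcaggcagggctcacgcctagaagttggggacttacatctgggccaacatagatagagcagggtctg
Ifi47: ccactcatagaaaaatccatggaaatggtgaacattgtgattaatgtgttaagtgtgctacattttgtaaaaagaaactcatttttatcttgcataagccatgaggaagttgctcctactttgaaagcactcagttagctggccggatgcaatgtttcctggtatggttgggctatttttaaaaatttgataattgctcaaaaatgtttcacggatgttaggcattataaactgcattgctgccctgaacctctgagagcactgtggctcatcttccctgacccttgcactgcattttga
In Igtp and Irgm2 a GAS core stands directly before the same ISRE core, beginning 45 and 34 bases before the start of Igtp and 75 and 64 bases before that of Irgm2. The Ifi47 window holds neither core.

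Members with and without each core were counted apart. Of the 16 members with an ISRE core, 12 were higher and 2 lower in ST2KO than ST2-low, with a median log2 fold change of 0.69; of the 18 with a window but without it, 12 were higher and 2 lower, with a median of 0.54. Against ST2-high the counts were 10 higher and 4 lower with the core, and 14 higher and 2 lower without it. Of the 13 members with a GAS core, 9 were higher and 2 lower in ST2KO than ST2-low, with a median log2 fold change of 0.29. Of the 21 members without one, 15 were higher and 2 lower, with a median of 0.72. Against ST2-high the counts were 8 higher and 3 lower with the GAS core, and 16 higher and 3 lower without it. Over all genes, 33% were higher and 29.3% lower against ST2-low, and 31.9% and 32.6% against ST2-high. Between ST2-high and ST2-low, 6 of the 16 members with an ISRE core were higher and 0 lower, against 3 higher and 3 lower of the 18 without it. In the same comparison 7 of the 13 members with a GAS core were higher and 1 lower, against 2 higher and 2 lower of the 21 without it, where 15.3% of all genes were higher and 10.8% lower. These splits were not tested.

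**Figure D2:**
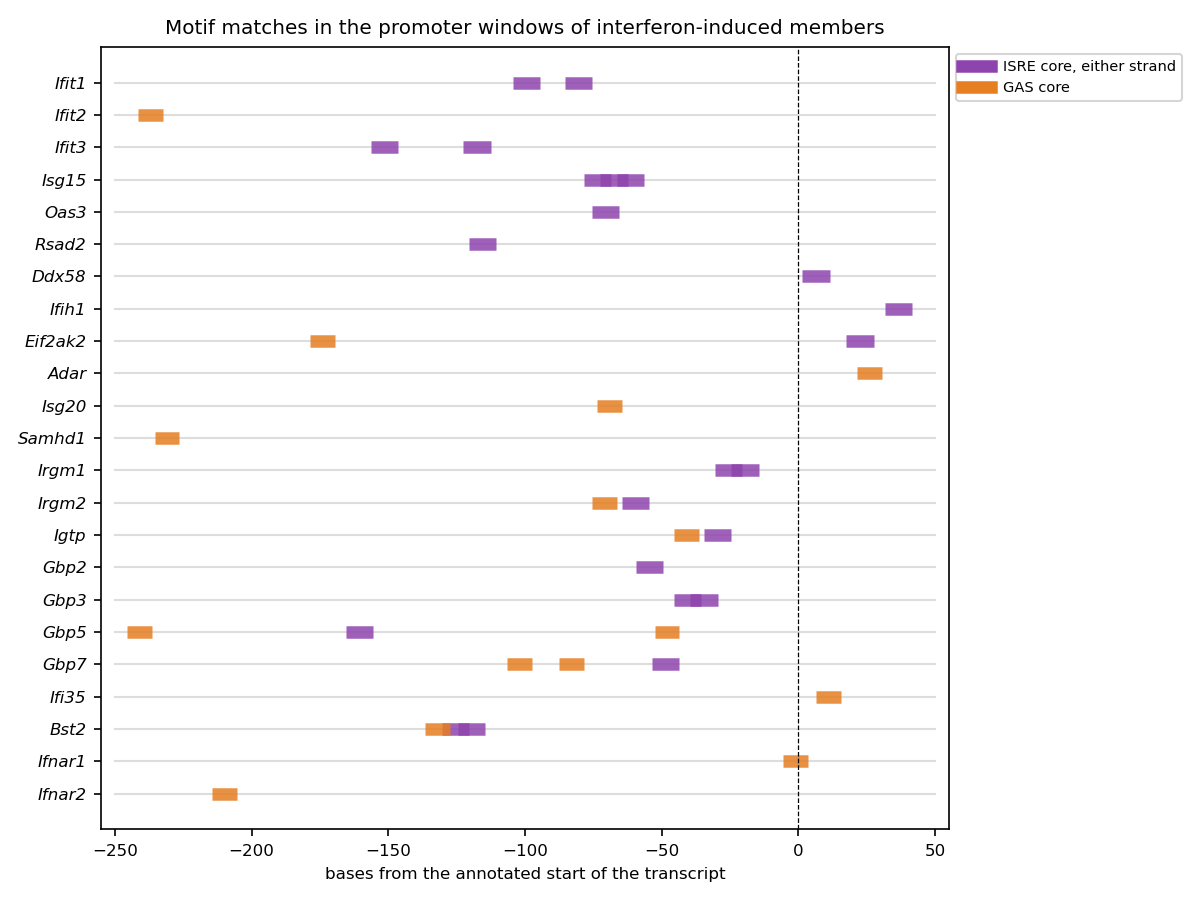
Positions of ISRE cores and GAS cores (horizontal axis, bases from the annotated transcript start) in the 23 members whose RefSeq window holds at least 1 of them; genes with several windows are drawn on 1 line. The cores of Ifit1, Isg15, Gbp3, Igtp and Irgm2 lie before the start, and that of Ddx58 begins just after it.

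The receptor chains moved apart. Ifnar1, the signalling chain that binds interferon weakly on its own, had 244, 260.3 and 231 CPM in ST2KO, 605, 574 and 649 CPM in ST2-high, and 488, 505 and 464 CPM in ST2-low libraries. No library of one group overlapped another group. Ifnar1 was 1.98-fold lower in ST2KO than ST2-low (log2 −0.98 ± 0.06, adjusted p = 1.65e-15) and 2.48-fold lower than ST2-high (log2 −1.31 ± 0.06, adjusted p = 1.31e-18). It was higher in ST2-high than ST2-low (log2 0.33 ± 0.06, adjusted p = 3.09e-05). Ifnar2, the chain that binds type I interferon tightly, had 73.9, 77.0 and 67.1 CPM in ST2KO, 57.5, 56.2 and 55.6 CPM in ST2-high, and 69.8, 67.6 and 71.9 CPM in ST2-low libraries. The ST2-high libraries were the low ones: ST2KO was 1.29-fold above them (adjusted p = 6.5e-06), and ST2-high was 1.24-fold below ST2-low (adjusted p = 0.000378). ST2KO and ST2-low overlapped for Ifnar2 (adjusted p = 0.374).

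The chains and kinases of the interferon-gamma receptor, which are not members, included genes that were lower in ST2KO. The 8 signalling genes tested were Ifngr1, Ifngr2, Jak1, Jak2, Tyk2, Stat2, Irf9 and Il10rb. Of these, 2 were higher and 4 lower in ST2KO than ST2-low, and 3 were higher and 3 lower in ST2KO than ST2-high. In ST2-high against ST2-low, 3 were higher and 2 lower. Of all genes, 33% were higher and 29.3% lower in the first of these comparisons, 31.9% and 32.6% in the next, and 15.3% and 10.8% in the last. Ifngr2, the signalling chain for interferon-gamma, had 43.4, 40.9 and 40.8 CPM in ST2KO, 142, 140.1 and 134 CPM in ST2-high, and 226, 199.6 and 196 CPM in ST2-low libraries. It was 4.95-fold lower in ST2KO than ST2-low (adjusted p = 8.76e-24) and 3.31-fold lower than ST2-high (adjusted p = 7.59e-21). Ifngr1, the ligand-binding chain, was 2.99-fold lower than ST2-low (adjusted p = 1.65e-19) and 2.96-fold lower than ST2-high (adjusted p = 1.81e-19). Jak2, the kinase bound to IFNGR2, had 229, 241 and 242 CPM in ST2KO, 1025, 906 and 1015 CPM in ST2-high, and 691, 747 and 698 CPM in ST2-low libraries, with no overlap. Il10rb, a chain shared by the receptors for interleukin-10 and interferon-lambda, went the other way, with 61.2, 61.5 and 58.4 CPM in ST2KO, 38.6, 38.0 and 41.1 CPM in ST2-high, and 34.6, 32.9 and 34.7 CPM in ST2-low libraries. It was 1.78-fold higher in ST2KO than ST2-low (adjusted p = 4.41e-12), 1.54-fold higher in ST2KO than ST2-high (adjusted p = 1.31e-09) and 1.15-fold higher in ST2-high than ST2-low (adjusted p = 0.0278). That last call was lost with DESeq2 size factors, with DESeq2's Wald test, with the 5 CPM filter and without ST2-high replicate 1 or 3 or any 1 of the ST2-low replicates (adjusted p up to 0.117). Tyk2 was 1.41-fold higher in ST2KO than ST2-low (adjusted p = 3.45e-09) and 1.13-fold higher than ST2-high (adjusted p = 0.00493). Stat2 was higher in ST2KO than ST2-high (1.14-fold, adjusted p = 0.0058) and did not pass against ST2-low. Jak1 was lower in ST2KO than ST2-low only, and Irf9 passed in neither ST2KO comparison. Ifnar1, Ifngr1, Ifngr2 and Jak2 were thus lower, and Tyk2 and Il10rb higher, in ST2KO libraries in which most induced genes were higher.

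Of the interferon genes themselves, 18 had rows and only Ifng, which encodes interferon-gamma, had enough counts to be tested. It had 8.97, 8.30 and 8.18 CPM in ST2KO, 3.87, 5.57 and 3.23 CPM in ST2-high, and 4.05, 5.46 and 4.72 CPM in ST2-low libraries. All ST2KO libraries were above all wild-type ones, by 1.80-fold against ST2-low (log2 0.85 ± 0.18, adjusted p = 0.000133) and 2.02-fold against ST2-high (log2 1.02 ± 0.18, adjusted p = 1.24e-05). The other interferon genes were mostly without counts: 16 of the 18 had no count in any ST2KO library, 15 had none in ST2-high and 13 had none in ST2-low, Ifnb1 among them in every group. Interferon protein and interferon made by other cells were not measured.

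**Figure D3:**
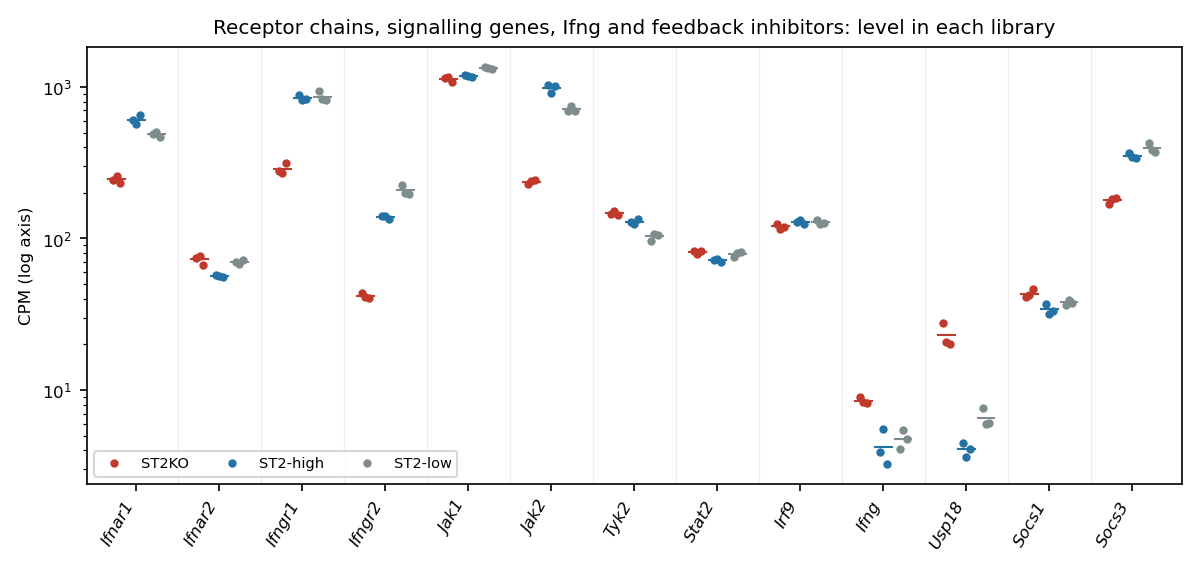
CPM in each library (log axis) of receptor chains, kinases, Stat2, Irf9, Ifng and feedback inhibitors in ST2KO, ST2-high and ST2-low; points are libraries and bars are group means. The ST2KO points lie lowest for Ifnar1, Ifngr1, Ifngr2, Jak2 and Socs3 and highest for Ifng, Usp18, Tyk2 and Socs1.

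Usp18 had the largest rise of all members in ST2KO. USP18 removes ISG15 from proteins and blocks IFNAR2, and so dampens the type I response. Its level was 27.9, 20.9 and 20.05 CPM in ST2KO, 4.50, 3.59 and 4.09 CPM in ST2-high, and 7.62, 6.01 and 6.03 CPM in ST2-low libraries. No group overlapped another. ST2KO was 3.56-fold above ST2-low (log2 1.83 ± 0.14, adjusted p = 1.67e-12) and 5.67-fold above ST2-high (log2 2.50 ± 0.15, adjusted p = 4.21e-15), and ST2-high was 1.59-fold below ST2-low (adjusted p = 0.00265). The other two members of this role, Isg15 and Trim25, fell in ST2KO. Isg15, the ubiquitin-like modifier, had 7.86, 7.36 and 8.84 CPM in ST2KO, 11.8, 13.3 and 9.56 CPM in ST2-high, and 11.1, 10.4 and 9.30 CPM in ST2-low libraries. Every ST2KO library was below every wild-type one, by log2 −0.55 ± 0.14 against ST2-high (adjusted p = 0.000949) and log2 −0.36 ± 0.14 against ST2-low (adjusted p = 0.0233). The call against ST2-low was lost with upper-quartile factors and without ST2KO replicate 1, ST2KO replicate 2 or ST2-low replicate 1, with adjusted p between 0.00866 and 0.095 over the alternatives. Trim25, a ubiquitin and ISG15 ligase that acts on RIG-I, had 137, 126 and 130.1 CPM in ST2KO, 201, 201 and 190.3 CPM in ST2-high, and 269, 258 and 258 CPM in ST2-low libraries. The 3 groups did not overlap: ST2KO was below ST2-low (log2 −0.99 ± 0.05, adjusted p = 1.19e-16) and below ST2-high (log2 −0.59 ± 0.05, adjusted p = 2.32e-11), and ST2-high was 1.32-fold below ST2-low (adjusted p = 1.93e-07). Enzymes of ISG15 conjugation that are not members, looked up after their values were seen, rose: Herc6, the main ISG15 ligase of mice, was 1.99-fold above ST2-low (adjusted p = 6.05e-11) and 1.80-fold above ST2-high (adjusted p = 1.15e-09). Uba7, the activating enzyme, was 1.42-fold above ST2-low (adjusted p = 1.35e-09) and 1.22-fold above ST2-high (adjusted p = 2.59e-05). Ube2l6, the conjugating enzyme, was 1.43-fold above ST2-low (adjusted p = 0.00374), and its value against ST2-high was 1.18-fold (adjusted p = 0.155).

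All 3 IFIT genes, whose proteins bind foreign RNA ends and block translation, rose in ST2KO and did not pass the threshold between the wild-type groups. Of all genes, 33% were higher in ST2KO than ST2-low and 31.9% higher than ST2-high. Ifit2 had 68.4, 53.6 and 54.9 CPM in ST2KO, 19.9, 20.9 and 19.8 CPM in ST2-high, and 21.8, 23.3 and 22.0 CPM in ST2-low libraries. Every ST2KO library was above every wild-type one, by 2.66-fold against ST2-low (log2 1.41 ± 0.09, adjusted p = 8.91e-15) and 2.95-fold against ST2-high (log2 1.56 ± 0.09, adjusted p = 8.76e-16). Ifit1, whose ISRE cores are shown above, had 22.3, 16.5 and 19.97 CPM in ST2KO, 11.6, 7.54 and 9.62 CPM in ST2-high, and 11.9, 7.83 and 6.78 CPM in ST2-low libraries. Its rise was 2.24-fold against ST2-low (adjusted p = 0.000116) and 2.03-fold against ST2-high (adjusted p = 0.000302). Ifit3 had 11.1, 5.55 and 13.3 CPM in ST2KO, 4.64, 2.72 and 3.36 CPM in ST2-high, and 4.05, 3.42 and 2.81 CPM in ST2-low libraries. ST2KO replicate 2 was the low one of its group but still above all wild-type libraries, and the rise was 2.91-fold against ST2-low (log2 1.54 ± 0.28, adjusted p = 0.000204) and 2.71-fold against ST2-high (log2 1.44 ± 0.28, adjusted p = 0.000309). Of the 50-base stretches of the annotated Ifit3 transcripts, 51.2% also occur in Ifit3b, so the counts of this gene are uncertain.

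The OAS genes encode enzymes and enzyme-like proteins that recognise double-stranded RNA. Of 4 members, 3 were higher in ST2KO than ST2-low, where 33% of all genes were. All 4 were higher than ST2-high, where 31.9% of all genes were. Oas3 had 41.5, 35.8 and 39.4 CPM in ST2KO, 31.9, 28.2 and 23.0 CPM in ST2-high, and 25.5, 24.4 and 22.4 CPM in ST2-low libraries. The ST2KO libraries were above the rest, by 1.62-fold against ST2-low (adjusted p = 2.32e-07) and 1.40-fold against ST2-high (adjusted p = 4.91e-05). Oas2 had 10.8, 5.26 and 9.49 CPM in ST2KO, 4.05, 3.36 and 4.15 CPM in ST2-high, and 3.73, 4.63 and 3.62 CPM in ST2-low libraries. It rose 2.17-fold against ST2-low (adjusted p = 3.26e-05) and 2.24-fold against ST2-high (adjusted p = 1.79e-05), again with ST2KO replicate 2 nearest to the wild-type libraries. Oasl1, which in mice restrains translation of IRF7, had 5.64, 4.68 and 6.14 CPM in ST2KO, 2.76, 2.32 and 2.18 CPM in ST2-high, and 4.21, 2.98 and 2.81 CPM in ST2-low libraries. It rose 2.23-fold against ST2-high (adjusted p = 2.11e-05) and 1.64-fold against ST2-low (adjusted p = 0.00327). The ST2-high libraries lay below all ST2-low ones, a difference that did not pass (adjusted p = 0.153). Oasl2 had nearly the same mean in ST2KO and ST2-low (log2 0.00 ± 0.19, adjusted p = 0.996) and was lower in ST2-high than ST2-low (log2 −0.65 ± 0.20, adjusted p = 0.0156), a call lost without ST2-high replicate 2 or ST2-low replicate 3. Its rise in ST2KO against ST2-high (log2 0.66 ± 0.20, adjusted p = 0.00533) did not hold without ST2KO replicate 1, with adjusted p from 0.000778 to 0.0538 over the alternatives.

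Of the 4 genes of Mx proteins, viperin and its partner, classical antiviral effectors, 1 was higher in ST2KO than ST2-low, where 33% of all genes were, and 2 were higher than ST2-high, where 31.9% were. Mx1, a dynamin-like GTPase that blocks viral replication, had 7.71, 5.03 and 7.28 CPM in ST2KO, 6.14, 4.46 and 5.01 CPM in ST2-high, and 6.11, 4.69 and 5.53 CPM in ST2-low libraries. The groups overlapped, and Mx1 did not pass in any comparison (adjusted p = 0.134, 0.0833 and 0.897 for ST2KO against ST2-low, ST2KO against ST2-high and ST2-high against ST2-low). Without ST2KO replicate 2 it passed against ST2-low (adjusted p = 0.0313) and ST2-high (adjusted p = 0.0176), and against ST2-high it also passed with upper-quartile factors and without ST2-high replicate 1. Rsad2, which encodes the antiviral enzyme viperin, had 7.36, 7.07 and 7.69 CPM in ST2KO, 8.27, 8.001 and 6.13 CPM in ST2-high, and 6.05, 5.63 and 7.94 CPM in ST2-low libraries, with adjusted p = 0.376, 0.859 and 0.398 in the same order of comparisons. Mx2, the relative of Mx1, had 6.04, 6.14 and 6.55 CPM in ST2KO, 4.29, 3.71 and 1.98 CPM in ST2-high, and 5.62, 3.48 and 4.32 CPM in ST2-low libraries. All ST2KO libraries were above the wild-type ones; the rise passed against ST2-high (1.81-fold, adjusted p = 0.00101), while against ST2-low the value was 1.39-fold (adjusted p = 0.0521), which passed under 7 alternatives. Cmpk2, the nucleotide kinase encoded beside viperin, had 15.2, 12.7 and 11.8 CPM in ST2KO, 9.49, 7.77 and 8.97 CPM in ST2-high, and 8.86, 6.12 and 8.29 CPM in ST2-low libraries. It rose 1.73-fold against ST2-low (adjusted p = 1.72e-05) and 1.53-fold against ST2-high (adjusted p = 0.00033), with no overlap between ST2KO and wild-type libraries.

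All 6 genes of nucleic acid sensors and their modifiers rose in ST2KO against both wild-type groups. Of all genes, 33% were higher against ST2-low and 31.9% against ST2-high. Ddx58, which encodes the RNA helicase RIG-I, had 120.0, 120.4 and 110.2 CPM in ST2KO, 66.1, 61.3 and 63.8 CPM in ST2-high, and 68.6, 70.8 and 66.7 CPM in ST2-low libraries. ST2KO was 1.71-fold above ST2-low (log2 0.77 ± 0.06, adjusted p = 8.76e-13) and 1.83-fold above ST2-high (log2 0.88 ± 0.06, adjusted p = 4.18e-14), with no overlap. Zbp1, a sensor of Z-form nucleic acid that can trigger necroptosis, had 73.3, 71.5 and 62.6 CPM in ST2KO, 43.5, 38.9 and 39.0 CPM in ST2-high, and 43.1, 38.3 and 37.8 CPM in ST2-low libraries. All ST2KO libraries lay above the wild-type ones, by 1.75-fold against ST2-low (adjusted p = 6.16e-11) and 1.71-fold against ST2-high (adjusted p = 1.25e-10). Eif2ak2 encodes PKR, a kinase that stops translation when it binds double-stranded RNA. It had 51.3, 53.6 and 45.3 CPM in ST2KO, 39.9, 36.8 and 35.1 CPM in ST2-high, and 27.7, 32.0 and 24.6 CPM in ST2-low libraries. This gene ran in steps, ST2KO being 1.34-fold above ST2-high (adjusted p = 5.19e-05) and ST2-high 1.33-fold above ST2-low (adjusted p = 0.000502). Adar, which edits double-stranded RNA and so keeps it from the sensors, had 227, 219 and 207 CPM in ST2KO, 171, 158 and 176 CPM in ST2-high, and 163, 175 and 173 CPM in ST2-low libraries. Its rise was 1.28-fold against ST2-low (adjusted p = 1.23e-06) and 1.30-fold against ST2-high (adjusted p = 4.97e-07); 22.8% of its annotated exonic bases lie opposite those of Chrnb2, whose reads cannot be told apart from its own without a stated strand. Ifih1, which encodes the sensor MDA5, rose 1.30-fold and 1.37-fold against ST2-low and ST2-high, and Dhx58, which encodes their regulator LGP2, rose 1.39-fold and 1.26-fold. The Dhx58 call against ST2-high did not hold without ST2KO replicate 1, with adjusted p from 0.0017 to 0.0836 over the alternatives.

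Samhd1 and Isg20 act on nucleotides and nucleic acids. Samhd1, a hydrolase that lowers the deoxynucleotide supply, had 919.5, 878 and 885 CPM in ST2KO, 844, 801 and 781 CPM in ST2-high, and 764, 718 and 715 CPM in ST2-low libraries. The groups stood in that order without overlap but close together: 1.22-fold in ST2KO against ST2-low (adjusted p = 1.33e-05), 1.11-fold in ST2KO against ST2-high (adjusted p = 0.014) and 1.10-fold in ST2-high against ST2-low (adjusted p = 0.0358). The call against ST2-high was lost without ST2KO replicate 1, ST2-high replicate 3 or ST2-low replicate 2 (adjusted p up to 0.0849), and that between the wild-type groups was lost with DESeq2 size factors, with the 5 CPM filter and without ST2-high replicate 1, ST2-low replicate 2 or ST2-low replicate 3 (up to 0.199). Isg20, an exonuclease that degrades RNA, had 13.4, 11.3 and 11.9 CPM in ST2KO, 11.4, 9.62 and 9.10 CPM in ST2-high, and 11.7, 7.56 and 8.59 CPM in ST2-low libraries. Its libraries overlapped; the rise against ST2-low (1.33-fold, adjusted p = 0.0137) was lost without ST2KO replicate 1, ST2-low replicate 2 or ST2-low replicate 3 (up to 0.15), and the value against ST2-high was 1.22-fold (adjusted p = 0.0792), which passed with upper-quartile factors and with limma-voom.

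**Figure D4:**
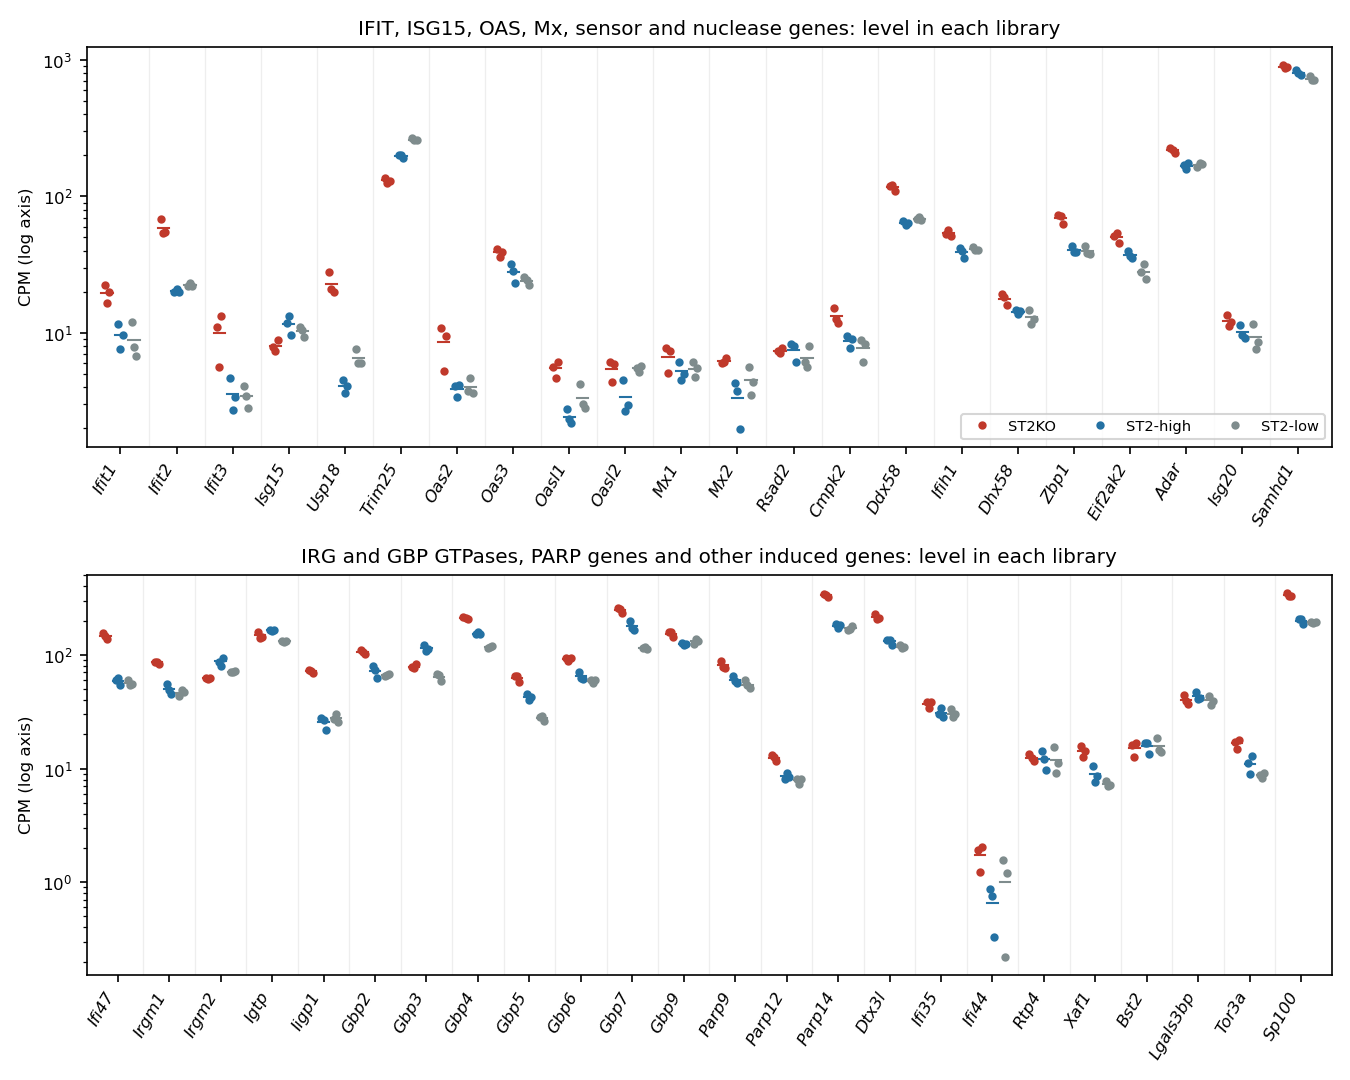
CPM in each library (log axis) of the members, with ST2KO, ST2-high and ST2-low side by side at each gene and bars at the group means; the upper panel holds IFIT, ISG15, OAS, Mx, sensor and nuclease genes, the lower one GTPases, PARP genes and the rest. ST2KO points stand clear of both wild-type groups for Ifit2, Usp18, Ddx58, Ifi47, Iigp1 and Parp14, while Gbp3 and Irgm2 peak in ST2-high.

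The immunity-related GTPases (IRG), which coat and break the vacuoles of intracellular pathogens in mouse cells, split within the family. Ifi47 had 156, 147 and 139 CPM in ST2KO, 59.8, 62.8 and 53.8 CPM in ST2-high, and 59.5, 54.6 and 55.7 CPM in ST2-low libraries. Its ST2KO libraries were far above all others, by 2.60-fold against ST2-low (log2 1.38 ± 0.06, adjusted p = 5.46e-18) and 2.50-fold against ST2-high (log2 1.32 ± 0.06, adjusted p = 1.12e-17), and its annotated exons share 111 bases with Olfr56 on the same strand. Iigp1, an effector GTPase of the family, had 73.2, 72.1 and 69.2 CPM in ST2KO, 27.9, 26.8 and 21.6 CPM in ST2-high, and 27.4, 30.0 and 25.7 CPM in ST2-low libraries. The rise was 2.59-fold against ST2-low (log2 1.37 ± 0.08, adjusted p = 3.02e-15) and 2.79-fold against ST2-high (log2 1.48 ± 0.08, adjusted p = 4.59e-16). Irgm1, a regulator that keeps effector GTPases off the cell's own membranes, had 86.9, 87.4 and 83.3 CPM in ST2KO, 55.5, 48.8 and 45.1 CPM in ST2-high, and 43.1, 49.1 and 47.0 CPM in ST2-low libraries. It was 1.85-fold above ST2-low (adjusted p = 2.74e-12) and 1.72-fold above ST2-high (adjusted p = 4.07e-11), and the wild-type libraries overlapped.

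The other two regulators of this family, Irgm2 and Igtp, were highest in ST2-high. Irgm2 had 62.8, 61.3 and 62.1 CPM in ST2KO, 87.3, 80.5 and 94.8 CPM in ST2-high, and 70.2, 71.0 and 72.2 CPM in ST2-low libraries, with no overlap. It was 1.41-fold lower in ST2KO than ST2-high (adjusted p = 3.57e-08) and 1.15-fold lower than ST2-low (adjusted p = 0.00698, and 0.0728 with upper-quartile factors), and 1.23-fold higher in ST2-high than ST2-low (adjusted p = 0.000378). Igtp, also named Irgm3, had 159, 141 and 145 CPM in ST2KO, 164, 162 and 166 CPM in ST2-high, and 131, 131 and 132 CPM in ST2-low libraries. ST2-high was 1.25-fold above ST2-low (adjusted p = 1.84e-05). ST2KO was 1.13-fold above ST2-low (adjusted p = 0.00447, lost without ST2KO replicate 1) and 1.10-fold below ST2-high (adjusted p = 0.0172), the last call being lost with upper-quartile factors and without ST2KO replicate 2 or 3 (adjusted p up to 0.267). Igtp and Irgm2 share 162 annotated exonic bases on the same strand, and 11.8% of the 50-base stretches of Igtp transcripts occur in Irgm2, so part of their counts may be shared.

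All 7 guanylate-binding protein genes (Gbp) were higher in ST2KO than ST2-low, 6 were higher and 1 lower than ST2-high, and 4 were higher in ST2-high than ST2-low. Of all genes, 33% were higher in the first comparison, 31.9% higher and 32.6% lower in the next, and 15.3% higher in the last. Guanylate-binding proteins are large GTPases that attack pathogen membranes and help to trigger inflammasomes. Gbp7 had 258, 254 and 232 CPM in ST2KO, 200.04, 173 and 165 CPM in ST2-high, and 116, 118 and 113 CPM in ST2-low libraries. Gbp5, which promotes NLRP3 inflammasome assembly, had 64.8, 65.8 and 58.3 CPM in ST2KO, 45.0, 40.0 and 42.5 CPM in ST2-high, and 28.3, 29.0 and 26.0 CPM in ST2-low libraries. Gbp4 had 214, 211 and 208 CPM in ST2KO, 153, 157 and 152 CPM in ST2-high, and 114, 117 and 121 CPM in ST2-low libraries. These 3 genes stood in the order ST2KO, ST2-high, ST2-low with no overlap. Taken pair by pair, 36% of all genes lay wholly above in ST2KO against ST2-low. The shares were 33.5% in ST2KO against ST2-high and 20.5% in ST2-high against ST2-low. Against ST2-low, ST2KO was higher by 2.15-fold for Gbp7 (adjusted p = 1.07e-15), 2.28-fold for Gbp5 (adjusted p = 8.6e-15) and 1.80-fold for Gbp4 (adjusted p = 2.68e-15). Against ST2-high the rises were 1.38-fold for Gbp7 (adjusted p = 6.62e-08), 1.48-fold for Gbp5 (adjusted p = 3.11e-08) and 1.37-fold for Gbp4 (adjusted p = 2.15e-09). In ST2-high they were 1.55-fold, 1.53-fold and 1.31-fold above ST2-low for Gbp7, Gbp5 and Gbp4 (adjusted p = 1.76e-09, 1.18e-07 and 3.08e-07).

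Gbp3 had another order. Its level was 77.5, 76.2 and 82.8 CPM in ST2KO, 123, 108 and 114 CPM in ST2-high, and 68.2, 66.1 and 58.7 CPM in ST2-low libraries. The ST2-high libraries were the highest and no groups overlapped. Gbp3 was 1.46-fold lower in ST2KO than ST2-high (log2 −0.55 ± 0.06, adjusted p = 7.06e-09) and 1.22-fold higher than ST2-low (adjusted p = 0.000254), and ST2-high was 1.79-fold above ST2-low (log2 0.84 ± 0.06, adjusted p = 7.51e-12). Of the remaining family members, Gbp2, Gbp6 and Gbp9 were 1.60-fold, 1.57-fold and 1.17-fold higher in ST2KO than ST2-low and 1.47-fold, 1.42-fold and 1.23-fold higher than ST2-high. Their wild-type differences did not pass, although those of Gbp2 and Gbp6 did without ST2-high replicate 3. Of the 50-base stretches of Gbp6 transcripts, 45.9% occur in Gbp10 and 65.0% in the gene model Gm43302, which shares 66.3% of the exonic bases of Gbp6 on the same strand, so Gbp6 counts are uncertain.

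The PARP genes and Dtx3l, which encode enzymes that attach ADP-ribose or ubiquitin and act on antiviral signalling, all rose in ST2KO. Of all genes, 33% were higher against ST2-low and 31.9% against ST2-high. Parp14 had 344, 338 and 325 CPM in ST2KO, 185, 172 and 181 CPM in ST2-high, and 165, 169 and 181 CPM in ST2-low libraries. ST2KO was clear of both wild-type groups, 1.96-fold above ST2-low (log2 0.97 ± 0.05, adjusted p = 3.1e-16) and 1.87-fold above ST2-high (log2 0.90 ± 0.05, adjusted p = 1.41e-15). Dtx3l had 230.2, 207 and 209.5 CPM in ST2KO, 136, 136 and 123 CPM in ST2-high, and 122, 116 and 117 CPM in ST2-low libraries. It was 1.83-fold above ST2-low (adjusted p = 2.02e-14) and 1.64-fold above ST2-high (adjusted p = 1.81e-12), and 1.12-fold higher in ST2-high than ST2-low (adjusted p = 0.0325), a call lost under 7 alternatives, among them the removal of ST2-high replicate 1, ST2-high replicate 2, ST2-low replicate 2 or ST2-low replicate 3. Parp9, the partner with which DTX3L forms a complex, had 88.5, 78.9 and 77.2 CPM in ST2KO, 64.9, 58.6 and 56.0 CPM in ST2-high, and 59.5, 53.8 and 51.1 CPM in ST2-low libraries. It rose by 0.58 ± 0.07 on the log2 scale against ST2-low (adjusted p = 2.94e-08) and by 0.45 ± 0.07 against ST2-high (adjusted p = 2.12e-06). Dtx3l and Parp9 share 367 annotated exonic bases on opposite strands. Parp12 was 1.59-fold and 1.46-fold above ST2-low and ST2-high.

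Among the 8 other members analysed, 4 were higher in ST2KO than ST2-low, where 33% of all genes were. Against ST2-high 5 were higher, where 31.9% of all genes were. Sp100, a component of nuclear bodies, had 347, 331 and 333 CPM in ST2KO, 205, 206 and 189 CPM in ST2-high, and 194, 193 and 195 CPM in ST2-low libraries, and was 1.74-fold above ST2-low (adjusted p = 1.8e-14) and 1.68-fold above ST2-high (adjusted p = 6.55e-14). Xaf1, which favours cell death by opposing XIAP, had 15.9, 12.5 and 14.4 CPM in ST2KO, 10.5, 7.54 and 8.64 CPM in ST2-high, and 7.78, 7.06 and 7.14 CPM in ST2-low libraries. It was 1.97-fold above ST2-low (adjusted p = 3.59e-07) and 1.60-fold above ST2-high (adjusted p = 5.56e-05). Tor3a, a torsin ATPase, had 17.3, 14.96 and 17.8 CPM in ST2KO, 11.1, 8.99 and 12.8 CPM in ST2-high, and 8.70, 8.22 and 9.20 CPM in ST2-low libraries, and was 1.92-fold above ST2-low (adjusted p = 1.79e-07) and 1.53-fold above ST2-high (adjusted p = 7.91e-05). For Sp100, Xaf1 and Tor3a the ST2KO libraries lay above the wild-type ones without overlap. Of all genes, 36% lay so against ST2-low and 33.5% against ST2-high. Ifi35 had 38.7, 33.8 and 38.5 CPM in ST2KO, 30.4, 33.8 and 28.4 CPM in ST2-high, and 33.1, 28.1 and 30.2 CPM in ST2-low libraries. Its rises of 1.22-fold against ST2-low (adjusted p = 0.00418) and 1.20-fold against ST2-high (adjusted p = 0.00701) were lost, the first without ST2-low replicate 2 (up to 0.0658) and the other without ST2KO replicate 1 or ST2-high replicate 3 (up to 0.0558).

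Ifi44 was the member nearest to the count limit, with 1.91, 1.23 and 2.05 CPM in ST2KO, 0.872, 0.754 and 0.330 CPM in ST2-high, and 1.57, 0.221 and 1.21 CPM in ST2-low libraries. It passed against ST2-high (log2 1.33 ± 0.44, adjusted p = 0.0105, lost without ST2KO replicate 1) and not against ST2-low (adjusted p = 0.109), where it passed with limma-voom and without ST2-low replicate 1 (adjusted p from 0.0351 to 0.543 over the alternatives). Bst2, which encodes the virus-tethering protein tetherin, had 12.6 to 16.8 CPM in ST2KO, 13.4 to 16.8 CPM in ST2-high and 14.1 to 18.7 CPM in ST2-low libraries. Rtp4 and Lgals3bp also overlapped between all groups, and these 3 genes passed in no comparison, with adjusted p of 0.297 or more.

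Genes on either side of the induced set were counted in the same fit from lists of the pathway. Of 59 further interferon-induced genes tested, 45 were higher and 7 lower in ST2KO than ST2-low, 42 were higher and 8 lower in ST2KO than ST2-high, and 15 were higher and 4 lower in ST2-high than ST2-low, with median log2 fold changes of 0.61, 0.50 and 0.13. The shares over all genes were 33% higher and 29.3% lower, 31.9% and 32.6%, and 15.3% and 10.8% in the same order of comparisons. Trim14, an adaptor of antiviral signalling at mitochondria, had 61.4, 60.3 and 62.7 CPM in ST2KO, 18.8, 16.6 and 19.2 CPM in ST2-high, and 17.7, 21.6 and 20.4 CPM in ST2-low libraries. It was 3.08-fold above ST2-low (adjusted p = 6.6e-17) and 3.38-fold above ST2-high (adjusted p = 9.79e-18). Slfn5, a member of the Schlafen family, was 2.59-fold and 2.65-fold above ST2-low and ST2-high, and Apobec3, a cytidine deaminase that restricts retroviruses, was 2.45-fold and 1.88-fold above them. Cd274, which encodes the inhibitory ligand PD-L1, went the other way with 83.0, 81.1 and 90.4 CPM in ST2KO, 248, 239 and 251 CPM in ST2-high, and 159, 156 and 159 CPM in ST2-low libraries. It was 2.91-fold lower in ST2KO than ST2-high (adjusted p = 4.27e-21) and 1.86-fold lower than ST2-low (adjusted p = 2.98e-15), and 1.56-fold higher in ST2-high than ST2-low (adjusted p = 2.4e-11).

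Of 17 genes that lead to interferon production, 7 were higher and 5 lower in ST2KO than ST2-low (all genes, 33% and 29.3%), 5 were higher and 8 lower in ST2KO than ST2-high (all genes, 31.9% and 32.6%), and 5 were higher in ST2-high than ST2-low (all genes, 15.3%). Tmem173, which encodes STING, the adaptor for cytosolic DNA, had 118, 114 and 113 CPM in ST2KO, 68.0, 66.6 and 73.6 CPM in ST2-high, and 46.1, 49.0 and 46.5 CPM in ST2-low libraries, a rise of 2.44-fold against ST2-low (adjusted p = 9.56e-18) and of 1.66-fold against ST2-high (adjusted p = 2.75e-12). Tlr7, an endosomal receptor for single-stranded RNA, had 32.6, 30.1 and 26.8 CPM in ST2KO, 12.1, 13.2 and 8.90 CPM in ST2-high, and 13.5, 13.6 and 12.6 CPM in ST2-low libraries. All ST2KO libraries were above the wild-type ones for both genes. Irf3, the transcription factor that switches on type I interferon genes, was 1.92-fold and 1.90-fold above ST2-low and ST2-high, and Ikbke, a kinase that activates it, was 1.70-fold and 1.67-fold above them. Among the lower genes, picked after their values were seen, Irf7, which amplifies the type I response, was 1.42-fold lower than ST2-low (adjusted p = 3.77e-07) and 1.27-fold lower than ST2-high (adjusted p = 0.000114). Tbk1, a further kinase of IRF3, was 1.33-fold lower in ST2KO than either wild-type group (adjusted p = 6.33e-08 against ST2-low and 5.77e-08 against ST2-high). Of 12 inhibitors tested, 3 were higher and 4 lower in ST2KO than ST2-low (all genes, 33% and 29.3%). Against ST2-high, 4 were higher and 4 lower in ST2KO (all genes, 31.9% and 32.6%). In ST2-high against ST2-low, 1 was higher and 1 lower (all genes, 15.3% and 10.8%). In the ST2KO comparisons the shares of the inhibitors lie near those of all genes. Socs3 and Ptpn2, which encode a JAK-STAT feedback inhibitor and a phosphatase that dephosphorylates JAK and STAT proteins, were 2.20-fold and 1.87-fold lower in ST2KO than ST2-low. Ptpn6, which encodes the phosphatase SHP-1, and Irf2, a repressor that binds ISRE sequences, were 1.85-fold and 1.63-fold higher.

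Transcripts of other cell types moved between the groups as well. Summed over 17 markers of myeloid and conventional dendritic cells, the level was 99.3 to 110.1 CPM in ST2KO, 233 to 244 CPM in ST2-high and 239 to 281 CPM in ST2-low libraries, and of the 15 tested, 13 were lower in ST2KO than ST2-low and 14 lower than ST2-high. Of all genes, 29.3% and 32.6% were lower in these comparisons. Neutrophil markers summed to 3.93 to 5.44 CPM in ST2KO, 15.5 to 25.7 CPM in ST2-high and 13.2 to 47.2 CPM in ST2-low libraries. The 10 markers of plasmacytoid dendritic cells, which are strong makers of type I interferon, summed to 123 to 126 CPM in ST2KO, 156 to 169 CPM in ST2-high and 146 to 147 CPM in ST2-low libraries. Without Runx2, the most abundant of them, the sum was 84.7 to 86.0 CPM in ST2KO, 74.5 to 77.9 CPM in ST2-high and 85.7 to 100.5 CPM in ST2-low libraries, so that ST2KO lay above ST2-high and overlapped ST2-low. Of the 7 tested, 1 was higher and 4 lower in ST2KO than ST2-low, and 2 were higher and 3 lower than ST2-high, while Klk1 and Cox6a2 were at 0 in all ST2KO libraries and in some wild-type ones. The shares over all genes were 33% higher and 29.3% lower against ST2-low, and 31.9% and 32.6% against ST2-high. Ccr9 was higher in ST2KO than either wild-type group, and Siglech lower. Siglech had few reads, with 0.117 to 0.217 CPM in ST2KO and 0.883 to 1.30 CPM in wild-type libraries. B cell markers summed to 122 to 156 CPM in ST2KO, 151 to 187 CPM in ST2-high and 133 to 200.5 CPM in ST2-low libraries, and natural killer cell markers to 30.0 to 38.4 CPM in ST2KO, 32.0 to 33.8 CPM in ST2-high and 39.3 to 42.2 CPM in ST2-low libraries. Of the 12 B cell markers, 6 were lower in ST2KO than ST2-low and 7 lower than ST2-high, with 0 higher in either comparison. Myeloid and neutrophil sums were thus lower in the ST2KO libraries in which most members were higher, also without the most abundant marker of each list; their part in the members' differences was not tested. The 8 Treg markers summed to 4371 to 4486 CPM in ST2KO, 5831 to 6100 CPM in ST2-high and 5193 to 5302 CPM in ST2-low libraries. Without Ctla4, an inhibitory receptor and the most abundant of them, the sum was 3555 to 3682 CPM in ST2KO, 3726 to 3933 CPM in ST2-high and 3215 to 3272 CPM in ST2-low libraries, which puts ST2KO above ST2-low and below ST2-high. Of the 8 markers, 4 were higher and 1 lower in ST2KO than ST2-low, beside 33% and 29.3% of all genes. Against ST2-high 3 were higher and 3 lower, beside 31.9% and 32.6% of all genes.

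Libraries of 1 group also differed in common across members. Replicate 1 was the highest of its group for 32 of the 48 members in ST2KO, 35 in ST2-high and 26 in ST2-low. In ST2KO and ST2-high it was also the most deeply sequenced library. In ST2-low it was the least deeply sequenced, with 19084575 counts beside 19150744 and 20098456. The part of depth in these levels was not tested. The median SD of the members' log2 levels within a group was 0.10 in ST2KO, 0.12 in ST2-high and 0.09 in ST2-low, and that of all genes was 0.10, 0.12 and 0.10. ST2-high replicate 3 stood farthest from its group in raw counts, with a chi-square per gene of 17.4 and 21.2 against replicates 1 and 2, where other pairs had at most 8.64. That value was taken without TMM scaling and with the ribosomal RNA precursor Rn45s kept in. Rn45s took 16.7% of counts in ST2-high replicate 3, and 13.0% and 12.1% in replicates 1 and 2. Its part in the chi-square was not tested. Without ST2-high replicate 3, 36 members were higher and 4 lower in ST2KO than ST2-low. In ST2KO against ST2-high 34 were higher and 6 lower, and in ST2-high against ST2-low 13 were higher and 4 lower.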

How the data were processed

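RNA of spleen Tregs was sequenced in 9 samples, grouped by the genotype labels. The authors deposited whole-number counts per gene symbol, not normalised, judged from the file headers and values; the sources used here do not give aligner, genome build, annotation, strand setting, library kit or sort. Of 23420 rows, 27 had symbols turned into dates and were left out (0.182% to 0.206% of counts); the ribosomal RNA precursor Rn45s took 12.1% to 16.95%. Counts were scaled with TMM and filtered with filterByExpr (minimum count 10, minimum total 15). The main test was edgeR's quasi-likelihood test on all 9 samples (edgeR 4.0.16, limma 3.58.1, R 4.3.3), adjusted over 12219 genes at 0.05; folds are log2 values of that fit, which was tested on simulated data. Members and lists were chosen with earlier results of these data known. Every member is named; values in every sample are given for the 3 genes of each role with the smallest adjusted p and a group mean of at least 5 CPM, with a 4th in groups over 5 genes, and for a few more chosen after their values were seen. Pathway lists are shown by up to 4 genes each; 1 item is not reported here. Marker sums without the most abundant marker were added after the data were seen. Intervals and SEs cover these samples only. Alternatives were DESeq2 1.42.0 size factors and Wald test, upper-quartile factors, limma-voom, no filter, filters of 5 CPM or 10 counts in 3 samples, 6 samples only, the replicate block, glmTreat at 1.5-fold, leaving out Rn45s, and leaving out each sample. Promoter windows were RefSeq's (GRCm38.p6); exon overlaps and shared 50-base stretches came from GENCODE vM21 transcripts.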

Additional observations from a re-analysis of the deposited data

How the results depend on the processing

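Ifi44 had few reads, 4 to 88 counts per sample, and counting error is then large. Over 19 alternatives other than the 1.5-fold test, direction and call of a member held in 870 of 910 cases for ST2KO against ST2-low, 887 for ST2KO against ST2-high and 859 for ST2-high against ST2-low. The members' counts were 33 to 37 higher and 3 to 4 lower for ST2KO against ST2-low when 1 sample was left out, 31 to 37 and 5 to 6 for ST2KO against ST2-high, and 8 to 13 and 3 to 4 for ST2-high against ST2-low. With the replicate block they were 35 and 4, 36 and 6, and 11 and 4. Deviations from the group means had r −0.063 to 0.098 in the 9 same-numbered pairs. With 3 samples per group this cannot show whether the numbers pair the samples. DESeq2's Wald test gave 35 and 4, 36 and 6, and 9 and 4. Upper-quartile factors left 2 members lower in ST2KO than ST2-low and moved the median of all genes to 0.12 and 0.10 in the ST2KO comparisons with ST2-low and ST2-high. Requiring more than 1.5-fold with glmTreat left 1025 genes higher and 1086 lower (ST2KO over ST2-low), 1027 and 1351 (ST2KO over ST2-high), and 335 and 12 (ST2-high over ST2-low); for the members 19 and 2, 14 and 1, and 1 and 0 (also 1 and 0 at an unadjusted p); for the 59 further interferon-induced genes 22 and 3, 19 and 3, and 1 and 0 (3 and 0 unadjusted). Of this last list, fewer or more were lower with the 5 CPM filter (4, 5 and 8 in the 3 comparisons) and with DESeq2 size factors (7 in ST2-high against ST2-low). The longer ISRE form was in 9 members. The cause of these shifts was not tested. The 5 CPM filter also left fewer genes to test, 9466.

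Values that changed sign were near 0 and did not pass the threshold in the main test or the alternative. On the log2 scale, ST2KO against ST2-low gave Bst2 0.014 (upper-quartile), Lgals3bp −0.008 (size factors), −0.012 (Wald) and −0.006 (6 samples), Oasl2 −0.036 (size factors), −0.041 (Wald), −0.014 (5 CPM filter), −0.034 (6 samples) and −0.031 (block). On the log2 scale, ST2KO against ST2-high gave Bst2 0.023 (upper-quartile), Rsad2 0.044 (upper-quartile). On the log2 scale, ST2-high against ST2-low gave Bst2 −0.024 (size factors), −0.009 (upper-quartile), −0.028 (Wald), −0.03 (5 CPM filter), 0 (10 count filter), −0.005 (block) and −0.007 (without Rn45s), Ifi35 −0.004 (size factors), −0.004 (Wald) and −0.009 (5 CPM filter), Ikbke −0.001 (5 CPM filter), Irf3 −0.011 (size factors), −0.011 (Wald) and −0.017 (5 CPM filter). Leaving out 1 sample gave these ranges that crossed or touched 0. For ST2KO against ST2-low they were Bst2 −0.137 to 0.081, Lgals3bp −0.063 to 0.1, Oasl2 −0.116 to 0.133 and Rtp4 −0.114 to 0.294. For ST2KO against ST2-high they were Bst2 −0.171 to 0.055, Rsad2 −0.172 to 0.027 and Rtp4 −0.116 to 0.165. For ST2-high against ST2-low they were Adar −0.051 to 0.025, Bst2 −0.078 to 0.138, Ifi35 −0.045 to 0.083, Ifit1 −0.049 to 0.416, Ifit3 −0.175 to 0.26, Ifngr1 −0.055 to 0.046, Ikbke −0.041 to 0.08, Irf3 −0.059 to 0.072, Mx1 −0.204 to 0.053, Oas2 −0.113 to 0.071, Ptpn2 0.0 to 0.086, Ptpn6 −0.077 to 0.033, Rtp4 −0.124 to 0.262, Slfn5 −0.106 to 0.013 and Zbp1 −0.031 to 0.094.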
